A study of Mus musculus with 6 samples.

Results

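The 38 mouse genes described here encode the machinery that copies DNA in S phase, and they were taken from the bead arrays by the gene symbol that the platform annotation gives each probe. All 38 have a probe on the array, 74 probes in all, and 34 of them passed the filter on dim probes, out of 9507 named genes and 2093 unnamed probes that did. The 4 that did not are the primase gene Prim1, the DNA polymerase alpha gene Pola1, the DNA polymerase epsilon subunit gene Pole2 and Slbp, whose protein binds the stem-loop of histone mRNAs. The study compared 3 control and 3 Chd1 shRNA samples of mouse embryonic stem (ES) cells, 1 array each, after electroporation of a pHYPER short hairpin RNA vector. Both groups grew in 15% serum with leukemia inhibitory factor (LIF) over fibroblast feeders stopped from dividing with mitomycin C, and both were selected with puromycin for 48 h from 24 h after electroporation. The strain, the ES line and what the control vector holds are not given in the sources used here. The Chd1 protein remodels chromatin at transcribed genes with energy from ATP, and the comparison asked how its loss alters gene expression.

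Replication starts at origins that are licensed in G1, when the origin recognition complex, CDC6 and CDT1 load the ring of MCM2 to MCM7 onto DNA. CDC45 and the GINS complex then join the ring to form the active helicase, and the replicative polymerases, the PCNA clamp with its RFC loader, the RPA single strand binding protein and the ribonucleotide reductase and thymidylate synthase that supply nucleotides do the rest. Many of these genes are activated by E2F transcription factors as cells pass from G1 to S phase, and ES cells, which have a short G1, are known for high expression of them.

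The 6 arrays detected 15663 to 17391 probes at a detection p under 0.05, fewer on each control array than on any Chd1 shRNA array. By 3 of its 4 kept probes Chd1 was lower after knockdown with no overlap of the groups, at 23.7% to 45.1% of control. The fourth read 92.6% of control with overlapping groups. None of the 4 passed an adjusted p of 0.05 by limma over all probes (smallest 0.174). Each group filled 3 neighbouring places of a single chip, and place cannot be told apart from group. The sources used here do not tell separate cultures from repeats within a group, and p-values therefore cover the spread of these samples alone, which may be technical. Of 23 ES cell markers on the platform, 21 were detected on every control and 22 on every Chd1 shRNA array, and only Nr0b1 was detected on none. Fibroblast markers were also present, 14 of 23 on every control and 16 on every Chd1 shRNA array, and of these markers Col1a2, Col5a2 and Postn were detected on no array. Values below are log2 intensities after background correction and quantile normalization, and a log2 fold change is Chd1 shRNA minus control.

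Nearly all DNA replication genes had a lower mean in Chd1 shRNA arrays, by small amounts. Of the 34 tested, 31 had a negative log2 fold change, where 49.8% of all 11600 genes tested did, and the median over the 34 was -0.23 against 0.00 over all genes. Scaling the arrays to a common median moved the median of all genes to 0.21, and then 17 of 34 had a negative value, where 24.3% of all genes did, the median of the 34 was 0.01 and 31 lay below the median of all genes. No DNA replication gene passed an adjusted p of 0.05 by limma, as no gene did at all (0% of those tested, and 0.0172% with scaling to the median, 0.00862% with scaling to the 75th percentile, 0.155% with a robust variance trend and 0.319% with array weights), and the smallest adjusted p among them was 0.249. At an unadjusted p under 0.05 there were 4, all lower, namely Pold2, Mcm3, Gins1 and Pole, or 11.8% of 34, where 6.33% of all genes were lower and 4.60% higher at that level. The 2 groups did not overlap for 3 genes, Mcm3, Pold2 and Tyms, all lower, or 8.82% of the 34. That share is near the 9.18% of all genes that were lower in this way, beside 6.87% that were higher, so on this measure the list does not stand apart. With scaling to the median 0 of 34 were lower at an unadjusted p under 0.05 (1.31% of all genes) and 1 had separate groups (1.85%). Scaling to the 75th percentile left 2 at that level (5.71%), and averaging the kept probes of a gene gave 5 with separate groups (9.11%). The plot of each gene by array shows how the groups overlap: 20 of the 34 had at least 2 Chd1 shRNA arrays below every control, where 25.0% of all genes did, and the array left over was mostly Chd1 shRNA replicate 1.

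**Figure D1:**
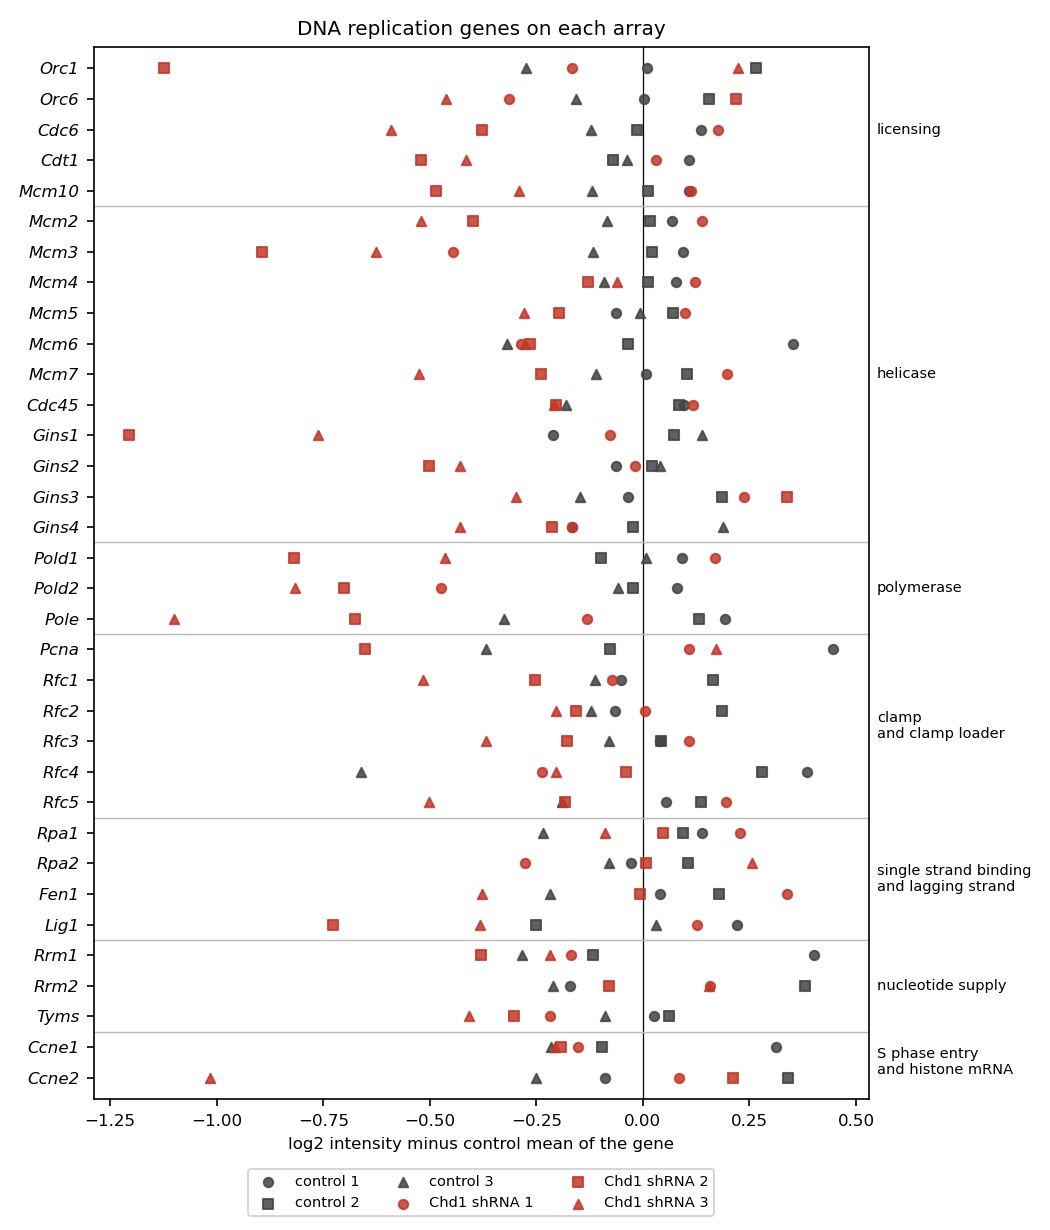
Log2 intensity of each of the 34 tested DNA replication genes on each array, minus the control mean of the gene, grouped by role. Grey symbols are control and red symbols Chd1 shRNA arrays, with circles, squares and triangles for replicates 1, 2 and 3. The red squares and triangles lie mostly left of 0, and the red circles lie on both sides of it.

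The arrays of a group did not behave alike. Measured against the control mean of each gene, 29 of 34 genes were lower on Chd1 shRNA replicate 2 and 30 on replicate 3, but 15 on replicate 1. Among the controls, 29 genes lay below that mean on replicate 3, against 10 on each of replicates 1 and 2. The median over the 34 genes of the log2 intensity minus the 6-array mean came to 0.14, 0.14 and -0.04 for controls 1 to 3, in replicate order, and to 0.16, -0.14 and -0.27 after knockdown. Chd1 shRNA replicate 1 thus read as high as the highest controls, and control replicate 3 was the lowest control. Without Chd1 shRNA replicate 1 the groups did not overlap, with lower values in Chd1 shRNA arrays, for 19 of 34 genes, where 19.4% of all genes did so, and the median was -0.33. Without control replicate 3 it was 9 of 34, where 18.4% of all genes did so, and without control replicate 1 it was 6, where 12.4% did. Dropping the second control gave 3 of 34 genes with separate, lower groups, beside 13.5% of all genes. Among the knockdown arrays, dropping replicate 2 gave 4 of 34 (11.6% of all genes) and dropping replicate 3 gave 3 (12.3%). The count at an unadjusted p under 0.05 by limma was 10 without Chd1 shRNA replicate 1, where 8.56% of all genes were lower at that level. It was 2 when Chd1 shRNA replicate 2 (3.65% of all genes) or 3 (4.16%) was left out, and 2 without the second control (4.88%).

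Among the loading factors, Cdt1, which brings the MCM ring to origins, had the smallest p. Cdt1 read 10.10, 9.92 and 9.96 on the control arrays and 10.02, 9.47 and 9.58 on the Chd1 shRNA arrays. Chd1 shRNA replicates 2 and 3 lay below every control and replicate 1 lay between control replicates 1 and 3. Its log2 fold change was -0.30 (SE 0.20, n = 3 per group), a level of 81.2% of control, with an adjusted p of 0.565 by limma. Values were similar for the other 4 genes of this role, -0.36 for Orc1 and -0.19 for Orc6 of the origin recognition complex, -0.26 for the loader Cdc6 and -0.22 for Mcm10, which acts when origins fire. The Orc1 probe was dim, detected on 3 control and 2 Chd1 shRNA arrays, and its interval was the widest of the role (95% confidence interval -1.11 to 0.40). All 5 loading and initiation genes thus had negative values, with a median of -0.26, and none passed the test.

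The helicase genes spanned the range of the whole list. Mcm3, a subunit of the MCM ring, read 9.86, 9.79 and 9.65 with the control vector and 9.32, 8.87 and 9.14 after knockdown, so every Chd1 shRNA array lay below every control. The log2 fold change of Mcm3 was -0.66 (SE 0.18, n = 3 per group), or 63.5% of control, with an adjusted p of 0.274 by limma. The two-sided p by exact permutation was 0.1, the lowest possible with 3 arrays against 3. Separate groups always give that value, so it adds nothing to the separation of Mcm3, or of Pold2 and Tyms below. The other 5 subunits of the ring had values closer to 0. Mcm6 had a log2 fold change of -0.28, Mcm2 -0.26, Mcm7 -0.19, Mcm5 -0.13 and Mcm4 -0.02. The subunits of the ring act in equal numbers, and their log2 fold changes ran from Mcm3 at -0.66 to Mcm4 at -0.02, whose 95% confidence intervals overlap (-1.07 to -0.24 and -0.40 to 0.36). Mcm4 read 12.76, 12.70 and 12.59 with the control vector and 12.81, 12.55 and 12.62 after knockdown, with full overlap of the groups. Mcm6 was the most even gene in the Chd1 shRNA group, with 10.48, 10.50 and 10.49 beside 11.12, 10.73 and 10.45 in control.

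Within the GINS complex, Gins1 had the most negative log2 fold change of the 34 genes, -0.68 (SE 0.28), or 62.3% of control, with an adjusted p of 0.434 by limma. It read 9.41, 9.69 and 9.76 with the control vector and 9.54, 8.41 and 8.86 after knockdown. Chd1 shRNA replicate 1 lay above control replicate 1, and the other 2 lay well below all controls. Gins2 and Gins4 had values of -0.32 and -0.27, and Gins3 had the most positive value of the list, 0.09 (SE 0.22) on a dim probe. CDC45 completes the active helicase, and Cdc45 had a value of -0.10 (SE 0.18). Of the 11 helicase genes 10 had negative values, with a median of -0.26.

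**Figure D2:**
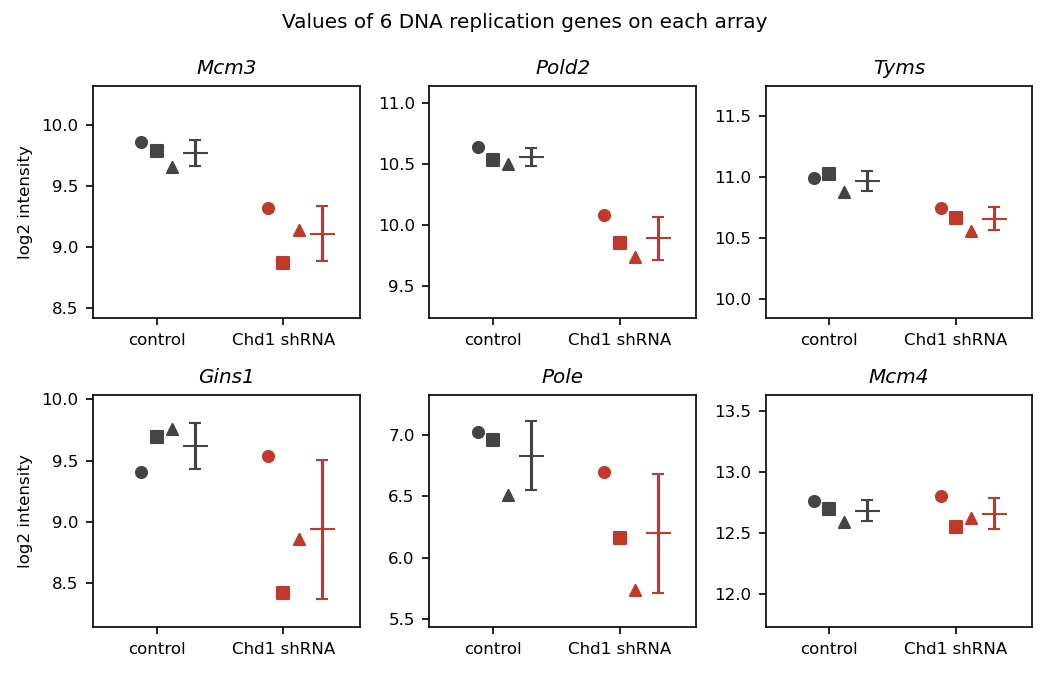
Log2 intensity of 6 DNA replication genes on each array (circle, square and triangle for replicates 1, 2 and 3), with the mean and SD of each group (n = 3) beside the points. Each panel spans the same number of log2 units. Mcm3, Pold2 and Tyms do not overlap between groups, Gins1 and Pole overlap through Chd1 shRNA replicate 1, and Mcm4 overlaps fully.

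The 3 tested polymerase genes, of 6 in this role, had a median log2 fold change of -0.64. Pold2, the accessory subunit that joins the catalytic subunit of DNA polymerase delta to the rest of the enzyme, had the smallest p of the 34 genes. Its readings were 10.64, 10.53 and 10.50 with the control vector and 10.08, 9.85 and 9.74 after knockdown. The groups were separate, with a log2 fold change of -0.66 (SE 0.17), 63.1% of control, and an adjusted p of 0.249 by limma. The two-sided p of 0.1 by exact permutation follows from that separation. Pole, the catalytic subunit of the leading strand polymerase epsilon, read 7.03, 6.96 and 6.51 against 6.70, 6.16 and 5.73, and only Chd1 shRNA replicate 1 lay above a control. Its value was -0.64 (SE 0.27, adjusted p = 0.451 by limma). Pold1, the catalytic subunit of polymerase delta, had a value of -0.37 (SE 0.25), with Chd1 shRNA replicate 1 the highest of all 6 arrays at 9.57. The median of the role was -0.21 with no detection filter, which adds Prim1, Pola1 and Pole2 and puts it above the -0.26 of the loading and the helicase genes, and it was -0.32 with no background correction.

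The 4 genes left out by the filter gave little information. Slbp and Pola1 each have 1 probe and Pole2 has 2, none detected on any array, with raw intensities between 84.3 and 114.8. The 1 Prim1 probe was detected on 1 control and 1 Chd1 shRNA array. A probe can miss its transcript, so the low signal of these probes is no measure of how strongly the genes are expressed. The same holds for Pcna, the sliding clamp, whose only probe read 5.88, 5.35 and 5.06 with the control vector and 5.54, 4.78 and 5.60 after knockdown, near background, with a log2 fold change of -0.12 (95% confidence interval -0.78 to 0.53).

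Clamp loader genes had small negative values throughout. Rfc1, the large subunit of the loader, had the smallest p of this role, with 10.66, 10.87 and 10.59 with the control vector and 10.63, 10.45 and 10.19 after knockdown. Only Chd1 shRNA replicate 1 reached into the control range, and the log2 fold change was -0.28 (SE 0.19, adjusted p = 0.570 by limma). Rfc2, Rfc3, Rfc4 and Rfc5, the small subunits, had values from -0.16 to -0.12, and the median of the 6 clamp and loader genes was -0.15. Genes of single strand binding and lagging strand work were centred on 0, with a median of -0.01. Lig1, the ligase that seals Okazaki fragments, read 9.80, 9.33 and 9.61 with the control vector and 9.70, 8.85 and 9.19 after knockdown, a log2 fold change of -0.33 (SE 0.25, adjusted p = 0.614 by limma). The RPA subunit genes Rpa1 and Rpa2 had values of 0.06 and -0.0044, and Fen1, the flap nuclease that trims Okazaki fragments, -0.02. The 95% confidence intervals of these 3 lay between -0.52 and 0.49.

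Of the genes of nucleotide supply, Tyms, the thymidylate synthase gene, read 10.99, 11.03 and 10.88 with the control vector and 10.75, 10.66 and 10.56 after knockdown. The groups did not overlap, and the log2 fold change was -0.31 (SE 0.16), 80.7% of control, with an adjusted p of 0.502 by limma. The two-sided p of 0.1 by exact permutation follows from that separation. Ribonucleotide reductase has a large subunit, from Rrm1, and a small one, from Rrm2. Rrm1 had a value of -0.26 (SE 0.21), and Rrm2 had 0.08 (SE 0.21). Cyclin E, the partner of CDK2 at the entry into S phase, is encoded by Ccne1 and Ccne2, with values of -0.18 (SE 0.19) and -0.24 (SE 0.33). Ccne1 had readings of 8.19, 7.79 and 7.67 with the control vector and 7.73, 7.69 and 7.68 after knockdown, and control replicate 3 was the lowest of all 6. Over all 34 genes, the 95% confidence interval lay above -1, a halving, for 29 and below 0 for 4.

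**Figure D3:**
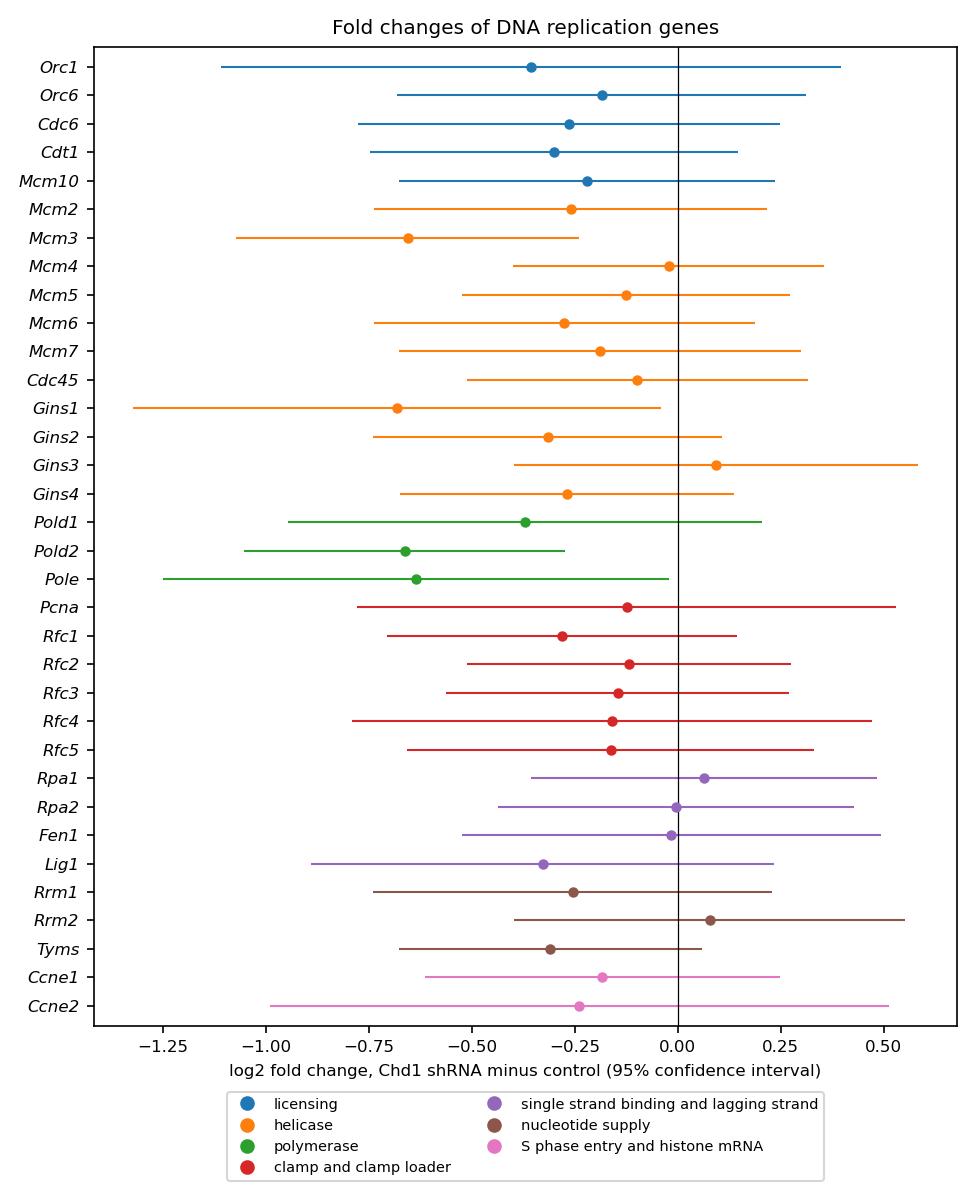
Log2 fold change, Chd1 shRNA minus control, of the 34 tested DNA replication genes with 95% confidence intervals from limma (n = 3 per group), coloured by role. Of 34 points 31 lie below 0, and the intervals of Mcm3, Gins1, Pold2 and Pole exclude 0 before adjustment.

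Other probes of the same genes mostly gave the same sign. Of 52 kept probes of the list 47 had a negative log2 fold change, where 49.5% of all 16018 kept probes did, and 12 genes had at least 2 kept probes. All kept probes were lower for 9 of these 12, and signs were mixed for Mcm4, Gins2 and Rrm2. A second Rrm2 probe read -0.24 beside 0.08 for the brighter one, a second Gins2 probe 0.20 beside -0.32, and a dim Mcm4 probe 0.27 beside -0.02. The groups did not overlap, with lower values in Chd1 shRNA arrays, for 5 of the 52 probes, where 8.58% of all kept probes did so. Beside the probes of Mcm3, Pold2 and Tyms these were an Mcm10 probe tied to a cDNA clone, with -0.82 (SE 0.24), and an Rrm1 probe with -0.62 (SE 0.22), both dimmer than the probe that represents the gene. The 2 other Mcm10 probes, tied to the reference mRNA, read -0.22 and -0.19. The transcripts behind each probe were not analysed here. No kept probe of the list passed an adjusted p of 0.05 over all probes by limma, where 0% of all kept probes did. The smallest adjusted p was 0.277.

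Promoters of these genes were searched for letters of the E2F motif. They were taken from a RefSeq table of GRCm38.p6 with 250 bases before and 50 after each start. Of the 38 genes 31 matched it, and Ccne2, Gins1, Gins2, Gins4, Mcm4, Pole and Rfc2 did not. The letters TTTCCCGC, TTTCGCGC, TTTGCCGC or TTTGGCGC, forms of the E2F motif, were searched on both strands. They were found for 13 of 31 genes (41.9%), against 2.60% of the 27025 genes of the table and 4.83% of the 7704 tested genes in it. The letters CCAAT, also on both strands, were found for 67.7% of the 31, 41.1% of all genes and 43.6% of the tested genes, and TTTGAA, the letters of the cell cycle homology region of mitotic genes, for 16.1%, 20.2% and 13.7%. A match is a description of the letters and not evidence of a bound site. Sequences are given for the 3 genes whose groups do not overlap and for Mcm6, which holds the most E2F matches of the list, with matched letters in capitals. For Mcm3 the stretch that spans both matches is given, from position 20 to 46 after the start (chr1:20820267-20820293, minus strand), and for the others the 250 bases before the start, Mcm6 at chr1:128359706-128359955, Pold2 at chr11:5878257-5878506 and Tyms at chr5:30073626-30073875, all on the minus strand and read 5′ to 3′ along the gene.
Mcm3: GCGGGAAAacttgggaagtTTTGGCGC
Mcm6: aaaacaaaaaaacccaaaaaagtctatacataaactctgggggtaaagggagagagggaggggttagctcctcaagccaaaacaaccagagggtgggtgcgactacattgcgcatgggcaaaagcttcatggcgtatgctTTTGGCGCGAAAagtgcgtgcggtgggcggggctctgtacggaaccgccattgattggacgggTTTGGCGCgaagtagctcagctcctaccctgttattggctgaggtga
Pold2: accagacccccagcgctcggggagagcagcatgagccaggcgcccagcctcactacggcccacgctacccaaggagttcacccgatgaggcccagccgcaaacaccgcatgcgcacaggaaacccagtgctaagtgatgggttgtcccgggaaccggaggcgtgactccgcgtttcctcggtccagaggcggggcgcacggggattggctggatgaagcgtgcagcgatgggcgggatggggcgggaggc
Tyms: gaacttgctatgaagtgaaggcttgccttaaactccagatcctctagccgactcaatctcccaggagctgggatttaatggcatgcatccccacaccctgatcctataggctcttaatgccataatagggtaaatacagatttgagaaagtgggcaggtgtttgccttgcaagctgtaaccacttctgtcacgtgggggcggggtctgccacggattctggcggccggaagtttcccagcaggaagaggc

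Mcm3 holds TTTCCCGC, read on the other strand, and TTTGGCGC. In Mcm6 the capitals from position -110 to -99 are 2 matches that overlap, 1 on each strand, and the third starts at position -47. The Pold2 and Tyms windows held none of the 4 forms, nor did a second Pold2 start. Tested genes with a match had negative values in 10 of 11 and a median log2 fold change of -0.28, and those without had 14 of 16 and a median of -0.17. Both kinds of promoter were thus found among genes with negative values.

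Other genes of the pathway were more mixed in sign, with 72.2% below 0 against 91.2% of the 34 genes. Separate, lower groups were more frequent among them, at 22.2% against 8.82%. A list of 61 further genes of origin licensing, fork function, nucleotide supply and replication-coupled chromatin assembly had 54 tested members, and 39 of these lay below 0 (median log2 fold change -0.18). None of them passed an adjusted p of 0.05 by limma, 8 were lower and 1 higher at an unadjusted p under 0.05 (6.33% and 4.60% of all genes), and 12 of 54 had groups that did not overlap, with lower values in Chd1 shRNA arrays, where 9.18% of all genes did so. Cdc7, the kinase gene that triggers origin firing, read 9.66, 9.52 and 9.28 with the control vector and 9.09, 9.07 and 9.10 after knockdown, and Chd1 shRNA replicate 1 was as low here as the other 2. Its log2 fold change was -0.40, beside -0.33 for Orc2 on a dim probe. Rnaseh2a, which removes RNA from RNA-DNA hybrids, and Pold3, another subunit of polymerase delta, had values of -0.58 (SE 0.20) and -0.63 (SE 0.23), both with separate groups. Thymidine kinase gene Tk1 had -0.54 (SE 0.17) and Samhd1, which encodes a deoxynucleotide hydrolase, -0.55 (SE 0.19), again with separate groups, and adjusted p-values of these 4 genes lay between 0.331 and 0.372 by limma. The maintenance methylase gene Dnmt1 and the chromatin assembly factor gene Chaf1b had -0.43 and -0.40 with overlapping groups. Pold4, the gene of the small subunit of polymerase delta, was named after its values were seen. Its value was positive, 0.93 (SE 0.37, adjusted p = 0.418 by limma), beside -0.37, -0.66 and -0.63 for Pold1, Pold2 and Pold3. The Pold4 groups overlapped at low intensity, with 5.07, 5.81 and 6.40 in control and 6.07, 7.01 and 6.99 after knockdown.

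The regulators of the G1 to S transition had values on both sides of 0. Of 22 tested E2F and G1/S genes 10 had negative values, with a median of 0.13. Of the activating E2F genes, E2f1 had a value of 0.23 and E2f3 of 0.32, both with overlapping groups. These are named although they are not among the 2 smallest p of the list. E2f2 had a log2 fold change of -0.83 (SE 0.31, adjusted p = 0.388 by limma), and it read 6.02, 6.82 and 5.98 in control against 5.93, 4.94 and 5.48. In the other direction, Cdkn1a, the p53 target gene for the CDK inhibitor p21, read 9.24, 9.81 and 11.35 with the control vector and 10.50, 11.90 and 11.76 after knockdown. Its log2 fold change was 1.25 (SE 0.55, adjusted p = 0.456 by limma), and control replicate 3 lay above Chd1 shRNA replicate 1. Of 19 tested genes of G2 and mitosis 15 lay below 0 (median -0.17), among them Nusap1, a spindle protein gene, with -0.48 (SE 0.18) and the spindle motor gene Kif11 with -0.44 (SE 0.20), both with separate groups. No other gene of this list had separate, lower groups, and the share of 10.5% is near the 9.18% of all genes. The difference between these lists and the DNA replication genes was not tested.

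**Figure D4:**
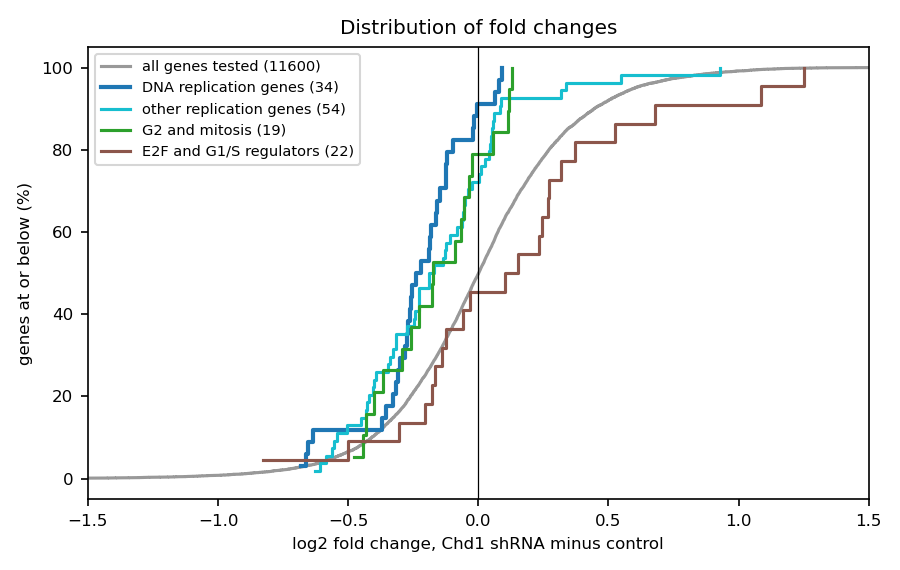
Cumulative distribution of log2 fold changes, Chd1 shRNA minus control, for all genes tested and for 4 gene lists, with the number of genes in brackets. The curve of DNA replication genes lies left of that of all genes and reaches 91.2% at 0, where all genes reach 49.8%.

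Markers of the fibroblasts moved with the DNA replication genes in the opposite direction, array by array. The median over 17 tested fibroblast markers, relative to the 6-array mean, came to -0.59, -0.69 and 0.31 for controls 1 to 3, in replicate order, and to -0.24, 0.55 and 0.84 after knockdown. Of these markers Lum was detected on 1 control and 3 Chd1 shRNA arrays and Pdgfra on 1 and 2. Both passed the filter mainly through the Chd1 shRNA arrays. The 3 arrays with the lowest fibroblast medians, control replicates 1 and 2 and Chd1 shRNA replicate 1, were those with the highest DNA replication medians, and Chd1 shRNA replicate 3 had the highest fibroblast and the lowest replication median. The summed linear intensity of the fibroblast markers ran from 8761 to 23358 in control and from 14806 to 29723 in Chd1 shRNA arrays, with positive log2 fold changes for 16 of 17, such as 1.45 (SE 0.50) for Dcn and 1.19 (SE 0.41) for Col1a1, both matrix genes. In a total RNA sample, fewer cells of a type and less RNA per cell cannot be told apart. With the mean fibroblast signal of each array in the model, the median log2 fold change of the DNA replication genes was -0.03 and 19 of 34 were negative, where 48.6% of all genes were. That signal came from the same arrays and differed with group, at 7.77, 7.62 and 8.79 in control and 8.19, 9.05 and 9.18 after knockdown. The fit cannot separate it from the knockdown, and whether it accounts for the lower values was not tested. In that fit Pold2 had -0.53, Mcm3 -0.50, Gins1 -0.47 and Tyms -0.21, none past the threshold. At an unadjusted p under 0.05 by limma 2 of the 34 were lower there (4.49% of all genes). In the same fit 12 genes with negative values turned positive, among them Fen1 at 0.31.

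**Figure D5:**
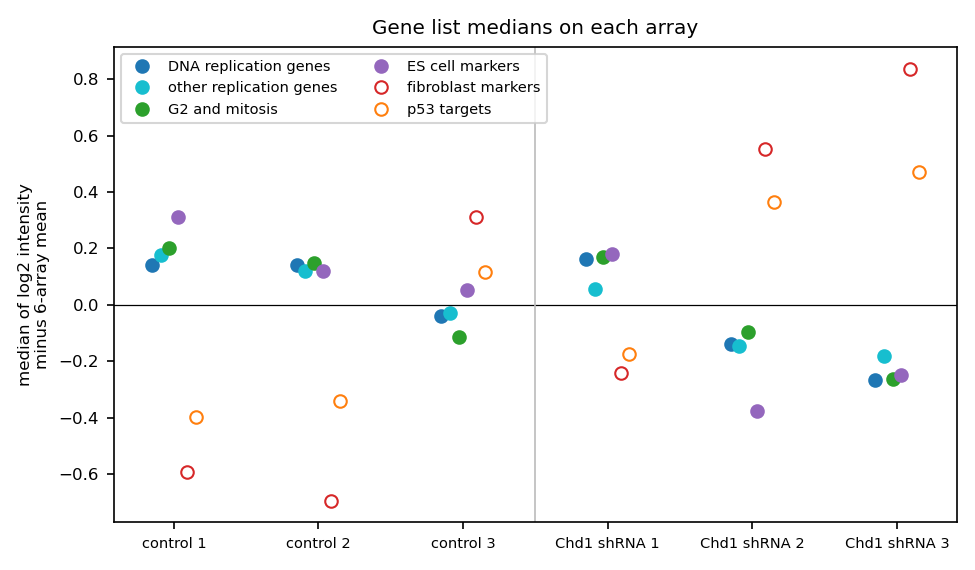
Median over the genes of a list of the log2 intensity minus the 6-array mean of each gene, for each array. Filled points are DNA replication genes, other replication genes, mitosis genes and ES cell markers, and open points are fibroblast markers and p53 targets. Filled points lie above 0 in control replicates 1 and 2 and Chd1 shRNA replicate 1, where open points lie below 0.

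Array medians of ES cell markers largely followed those of the DNA replication genes, and medians of p53 targets those of the fibroblast markers. The E2F and G1/S genes followed neither, with 0.06, -0.06 and 0.07 in control and 0.08, -0.03 and 0.04 after knockdown. Nor did the 2 tested mesoderm markers, with -0.13, -0.65 and 0.78 against -0.12, -0.05 and 0.17. Of 22 tested ES cell markers 19 lay below 0 (median -0.36), among them Tcl1 with -1.19 (SE 0.24) and Nr5a2 with -1.01 (SE 0.34), and their array medians were 0.31, 0.12 and 0.05 with the control vector and 0.18, -0.38 and -0.25 after knockdown. Their summed linear intensity ran from 71237 to 79923 in control and from 60593 to 70746 in Chd1 shRNA arrays, while that of the DNA replication genes ran from 48166 to 53748 and from 41963 to 52964. Targets of p53, which halts the cycle after DNA damage, had positive values in 14 of 17 with a median of 0.55, including Trp53inp1 with 0.73 (SE 0.23) and Plk2 with 1.05 (SE 0.38), and array medians of -0.40, -0.34 and 0.12 against -0.17, 0.36 and 0.47. The median of 0.55 is the value of Rrm2b (SE 0.46). Of primitive endoderm markers, 8 of 12 were tested, 3 of them negative and 5 positive (median 0.38), with Lama1 at -1.37 and Amn at -0.85 but Dab2 and Pdgfra, which is also on the fibroblast list, both at 0.71, and Gata4 and Sox17 were detected on no array. Of mesoderm markers only Bmp4, with -1.04, and Foxc1, with 1.04, were tested. Foxc1 and the p53 target Rrm2b were each detected on 1 control and 3 Chd1 shRNA arrays, and Pdgfra on 1 and 2. All of these passed the filter mainly through the group where they were higher, which favours a positive value. No member of these lists passed an adjusted p of 0.05 by limma, and their part in the values of the DNA replication genes was not tested.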

How the data were processed

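RNA of 6 samples, 3 control and 3 Chd1 shRNA by the transfection label, was read on Illumina bead arrays. The deposited unnormalized table holds linear intensities of 45281 probes, made with GenomeStudio per the submitters' processing notes (version not given in the sources used here), and a detection p-value for each probe, per the file headers. A second deposited table holds intensities normalized by the authors in a way not given in the sources used here, and served as an alternative. The normexp background model was used, its negative controls inferred from detection p-values (offset 16), then quantile normalization and log2 (limma 3.58.1, R 4.3.3). This compresses differences of dim probes and removes shifts of a whole array. A probe was kept if 3 or more of the 6 arrays gave it a detection p under 0.05, which held for 16018. The platform annotation gives 1 gene for 34885 probes, several for 18 and none for 10378, and RefSeq gene identifiers changed 0 symbols. Each gene was represented by its brightest kept probe, giving 11600 genes with unnamed probes. Differences were fitted with lmFit and eBayes and adjusted by Benjamini-Hochberg over all genes. Only the working of these steps was tried on simulated data, and no reported difference rests on it. Replicates were numbered in accession order, which pairs none. Genes of the list are accounted for in full, with values on every array where groups do not overlap or p is smallest in a role, and the 2 smallest p of each other list are named. Some others, such as Pold4, E2f1 and E2f3, are named beyond that rule. The genes and lists were chosen with earlier results of these data known. The number of arrays limits the precision.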

Additional observations from a re-analysis of the deposited data

How the results depend on the processing

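No DNA replication gene passed the threshold under any alternative run. Scaling to a common median instead of quantiles left 17 of 34 lower, 1 with separate groups and 0 at an unadjusted p under 0.05, with a median log2 fold change of 0.0092, and 2 of all genes passed. Role medians there were -0.034 for loading, -0.016 for helicase, 0.082 for clamp and loader, 0.17 for strand binding and 0.040 for nucleotide genes. Signs turned there for Cdc6 (0.029), Mcm4 (0.094), Mcm5 (0.039), Mcm7 (0.12), Cdc45 (0.19), Pcna (0.023), Rfc2 (0.10), Rfc3 (0.088), Rfc4 (0.11), Rfc5 (0.076), Rpa2 (0.30), Fen1 (0.17), Rrm1 (0.04) and Ccne1 (0.12). With the fibroblast signal in the model 19 were lower, 2 of them at an unadjusted p under 0.05, with medians of -0.033 over the list, -0.0092 for helicase, -0.18 for polymerase, 0.089 for clamp and loader and -0.073 for nucleotide genes. Signs turned there for Cdc6 (0.030), Mcm10 (0.0052), Mcm4 (0.099), Mcm7 (0.083), Cdc45 (0.12), Pcna (0.16), Rfc2 (0.026), Rfc3 (0.035), Rfc4 (0.19), Rfc5 (0.14), Fen1 (0.31), Ccne2 (0.13) and Foxc1 (-0.054). Scaling to the 75th percentile left 2 at an unadjusted p under 0.05, let 1 of all genes pass, and gave Rpa1 -0.042 and Rpa2 0.092. Array weights let 37 genes pass and gave Rpa1 -0.0027 and Rrm2 -0.066, and a robust variance trend let 18 pass. Averaging kept probes gave 5 with separate groups, Mcm4 0.054 and Rrm2 -0.080. The polymerase median was -0.32 in the authors' processed table and without background correction, and -0.21 without the detection filter. Leaving out 1 array at a time gave 3 to 19 genes with separate, lower groups (11.6% to 19.4% of all genes). At an unadjusted p under 0.05 by limma 2 to 10 were lower (3.65% to 8.61% of all genes). The nucleotide median was -0.35 to -0.055. Signs turned in some of these fits for Mcm4 (-0.094 to 0.032), Pcna (-0.31 to 0.14), Rfc4 (-0.49 to 0.032), Rfc5 (-0.34 to 0.0059), Fen1 (-0.19 to 0.17), Rrm2 (-0.027 to 0.27), Rpa1 (-0.054 to 0.14), Rpa2 (-0.13 to 0.13), Orc1 (-0.65 to 0.028), Gins3 (-0.031 to 0.29) and Ccne2 (-0.47 to 0.15). The causes were not tested. No paired analysis was possible because the labels give no replicate numbers. Signal near background limits Pcna, Orc1, Orc2 and Gins3.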
